A study of Mus musculus with 9 samples.

Results

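Cxcl1, Cxcl2, Cxcl5, Ccl20, Ccl2, Ccl7, Cx3cl1 and Cxcl16, 8 chemokine ligand genes of the mouse, were followed in endothelial cells that expressed an activated form of TAZ or a TAZ fusion protein. They were taken by symbol from a deposited gene table, where all 8 had a row among 17565 genes. A filter on low values, at least 0.5 CPM in at least 3 libraries, was passed by 7 of the 8 and by 12350 genes of the table. CPM is the read count of a gene scaled by the authors to the size of its library. The 8 ligands were selected on their measured rises over control in these same libraries, so their levels and fold changes are given as a description, without a test.

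The cells were MS1, an endothelial line from mouse pancreas supplied by ATCC, and each group has 3 libraries. The TAZ4A cells carried the lentiviral plasmid pCDH-TAZS4A and the TAZ-CAMTA1 cells pCDH-TAZ-CAMTA1, and control cells carried pCDH-puro. TAZ is a co-activator that works through TEAD DNA-binding proteins and is held back by Hippo kinases, and the S4A form has serines changed to alanine. TAZ-CAMTA1 joins TAZ to the transcription activator CAMTA1, as in epithelioid hemangioendothelioma, a vascular cancer. All 3 groups share the cell line and the vector family. The promoter of the vectors, the species of the TAZ sequence and the number of cultures or clones behind a group are not given in the sources used here, so the spread between libraries may be technical.

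Chemokines are small secreted or membrane-bound proteins that steer leukocytes along a gradient through receptors of the G protein-coupled family. Endothelium displays them on heparan sulfate at the vessel wall, where they arrest rolling leukocytes. CXC ligands that carry the ELR motif before the first cysteine pair act on Cxcr2 and draw neutrophils, and Cxcl1, Cxcl2 and Cxcl5 belong to them. Ccl2 and Ccl7 act on Ccr2 and draw monocytes. Ccl20 acts on Ccr6 and draws lymphocytes and dendritic cells. Cx3cl1 (fractalkine, receptor Cx3cr1 on monocytes) and Cxcl16 (receptor Cxcr6 on T cells) are made as membrane proteins on a mucin stalk and shed by proteases.

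The class of each ligand can be read in its coding sequence, and the stretches below show the codons that define it, from GENCODE vM21 transcripts on GRCm38. Capitals mark the ELR codons in Cxcl1, Cxcl2 and Cxcl5, and the codons of the first cysteine pair in the other 5.
Cxcl1, codons 28 to 38: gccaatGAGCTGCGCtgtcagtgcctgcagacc
Cxcl2, codons 31 to 41: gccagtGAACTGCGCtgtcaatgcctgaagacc
Cxcl5, codons 48 to 58: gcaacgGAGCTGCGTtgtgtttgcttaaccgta
Ccl20, codons 31 to 37: tacgacTGTTGCctctcgtac
Ccl2, codons 32 to 38: ctcaccTGCTGCtactcattc
Ccl7, codons 31 to 37: tccacaTGCTGCtatgtcaag
Cx3cl1, codons 30 to 39: acgaaaTGCgaaatcatgTGCgacaagatg
Cxcl16, codons 33 to 40: ggaagtTGTtctTGTgatcgtacc
The cysteine codons stand side by side in Ccl20, Ccl2 and Ccl7. One codon lies between them in Cxcl16 and 3 codons in Cx3cl1. Over the aligned coding sequence Cxcl1 and Cxcl2 were 78.7% identical, with a longest shared run of 23 bases between their transcripts. Ccl2 and Ccl7 were 66.7% identical, also with a longest shared run of 23 bases.

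Reads assigned to genes numbered 21966004 to 34224715 per library, and 3 reads, the limit that a count of 0 allows in 1 library, correspond to 0.0878 to 0.139 CPM (counting error only). TAZ-CAMTA1 replicate 2 stood apart. Its log2 values correlated at 0.985 to 0.986 across genes with the other TAZ-CAMTA1 libraries, against at least 0.9987 for every other pair of libraries of a group, and 3.93% of its reads fell on ribosomal protein genes, with 1.86% to 2.13% in the other libraries. Ligand comparisons and counts of list genes are therefore also given without it. Adjusted p-values of single genes come from the fit that includes it, unless stated, and more genes passed without it. Camta1 rose in TAZ-CAMTA1 cells (13.1 ± 0.58 CPM, against 4.05 ± 0.92 CPM in control, SD, n = 3 each; adjusted p = 7.6e-05, limma). Wwtr1, the gene of TAZ, did not follow the TAZ4A label, with 319, 320 and 335 CPM there and 545, 536 and 570 CPM in control (adjusted p = 0.0057, or 0.0512 with TPM). It was not raised in TAZ-CAMTA1 either, at 492, 328 and 491 CPM (log2 difference from control -0.36 ± 0.15). Whether reads of either construct are counted in this row was not tested, and TAZ4A below means the libraries labelled so. Of 12 endothelial markers 11 reached 1 CPM in a library, Cldn5 being the exception, and their summed level was 7336 to 7584 CPM in TAZ4A, 10687 to 12224 in TAZ-CAMTA1 and 11080 to 11320 in control. Of 16 leukocyte markers 11 had a row and 3 reached 1 CPM (Cd68, Lyz2 and Cd14), and the summed level was 397 to 406, 464 to 715 and 453 to 525 CPM in the same order. Cd68, high in control as well, made up nearly all of that sum, with group means of 398, 563 and 488 CPM. The defining leukocyte genes Ptprc, Itgam, Csf1r and Spi1 stayed at or under 0.171 CPM as group means. Lyz2, a myeloid lysozyme gene of the same list, had 1.45 ± 0.41 CPM in TAZ4A and 6.83 ± 1.8 CPM in TAZ-CAMTA1, against 0.0104 ± 0.018 CPM in control. It passed the filter through the construct libraries alone, which fixed the direction against control, so no test is given. The sum of 11 fibroblast and mural cell markers was 19.8 to 21.6 CPM in TAZ4A, 13.9 to 20.6 in TAZ-CAMTA1 and 6.19 to 8.13 in control, and the sum of the 6 epithelial markers with a row, of 12, was 30.0 to 32.9, 34.1 to 65.7 and 24.8 to 28.1 CPM. Within the epithelial sum Krt18 was at 19.3, 30.1 and 22.3 CPM, Krt19 at 9.05, 1.31 and 0.501 and Cldn4 at 2.73, 13.9 and 3.96. The part of these markers in the results below was not tested. In bulk RNA more cells that express a gene and more RNA per cell cannot be told apart.

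The neutrophil ligands with the ELR motif were higher in both construct groups than in control, and higher in TAZ4A than in TAZ-CAMTA1. Cxcl1 (mm10 chromosome 5, 90891245 to 90893115, plus strand), a neutrophil attractant that many cell types release, stood at 350.5, 344.9 and 360.4 CPM in TAZ4A and at 158.6, 165.1 and 127.4 CPM in TAZ-CAMTA1, against 6.04, 7.26 and 8.21 CPM in control. No group overlapped another, and the TAZ-CAMTA1 libraries lay between the other groups. The means were 49.1-fold control in TAZ4A and 21.0-fold control in TAZ-CAMTA1. On the log2(CPM + 0.5) scale the differences from control were 5.53 ± 0.13 and 4.30 ± 0.13 (fitted SE), with 4.23 for the fusion without TAZ-CAMTA1 replicate 2.

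Cxcl2 (chromosome 5, 90903899 to 90905938, plus strand), the closest relative of Cxcl1 and a ligand of the same receptor, followed the same order. It had 72.3, 75.7 and 74.3 CPM in TAZ4A and 25.0, 27.6 and 23.8 CPM in TAZ-CAMTA1, against 1.67, 2.27 and 1.44 CPM in control, again with no overlap. The means were 41.3-fold and 14.2-fold that of control, or log2 differences of 5.04 ± 0.13 and 3.51 ± 0.13 (3.46 without TAZ-CAMTA1 replicate 2).

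Cxcl5 (chromosome 5, 90759298 to 90761625, plus strand), which in other tissues is made mostly by epithelium and platelets, was nearly silent in control. Its levels were 15.04, 16.1 and 16.9 CPM in TAZ4A and 1.20, 1.11 and 1.44 CPM in TAZ-CAMTA1, and each control library held 1 read (0.0464, 0.0299 and 0.0313 CPM). The 1589 reads in TAZ4A against 3 in control gave a rate ratio of 465 (95% counting interval 159 to 2255). The 105 reads in TAZ-CAMTA1 against the same 3 gave a ratio of 35.7 (11.9 to 176). The groups did not overlap. The log2 differences from control, 4.95 ± 0.10 and 1.70 ± 0.10, are held down by the added 0.5 CPM.

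**Figure D1:**
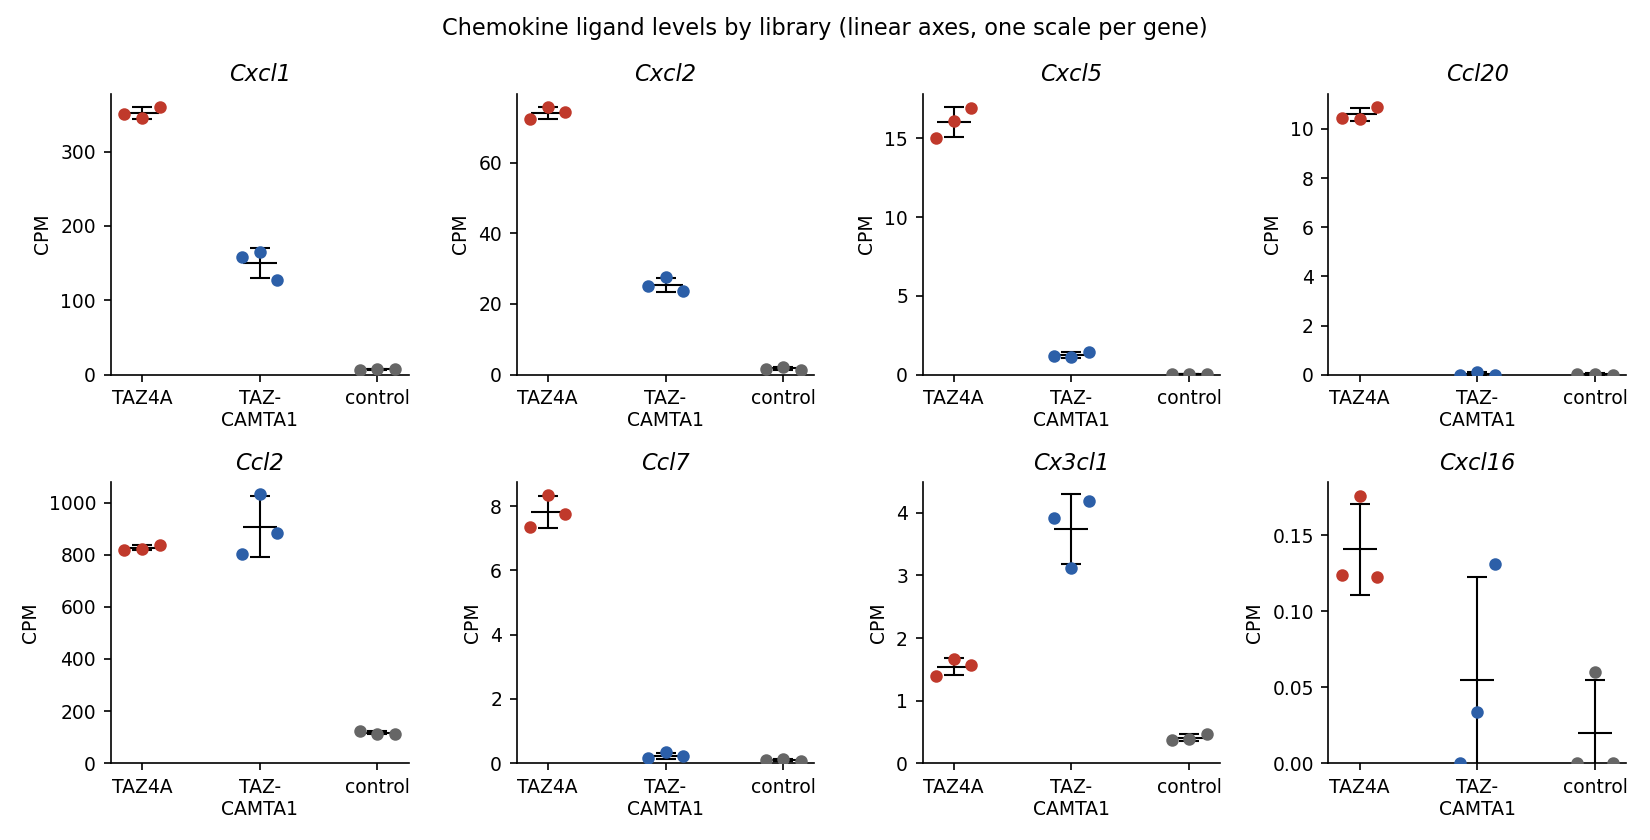
Level of each of the 8 ligands in CPM on a linear axis from 0, with a scale of its own for each gene. Points are libraries, bars the mean and SD of 3 libraries, in TAZ4A, TAZ-CAMTA1 and control. Cxcl1, Cxcl2, Cxcl5, Ccl20 and Ccl7 stand highest in TAZ4A, the construct groups overlap for Ccl2, and Cx3cl1 is highest in TAZ-CAMTA1.

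Ccl20 (chromosome 1, 83116766 to 83119167, plus strand), the ligand of Ccr6, was measured in TAZ4A and was at the limit of counting in both other groups. It had 10.5, 10.4 and 10.9 CPM in TAZ4A, from 1049 reads. In TAZ-CAMTA1 the libraries held 0, 3 and 0 reads, all 3 of them in replicate 2, the library that stood apart, and in control they held 1, 1 and 0. The rate ratio of TAZ4A over control was 460 (95% counting interval 127 to 3804). TAZ-CAMTA1 over TAZ4A was 0.00333 (0.00069 to 0.00976). Both TAZ-CAMTA1 and control lay at or under 3 reads per library, so no fold is given between them, and a level below about 0.1 CPM was not detectable at this depth.

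The monocyte ligands Ccl2 and Ccl7 parted from each other. Ccl2 (chromosome 11, 82035577 to 82037452, plus strand), the main ligand of Ccr2, was by TPM the most abundant of the 8 in every group and already present in control. It had 820, 822 and 837 CPM in TAZ4A and 802, 1033 and 885 CPM in TAZ-CAMTA1, against 122, 113 and 112 CPM in control. Both construct groups lay wholly above control, 7.13-fold for TAZ4A and 7.82-fold for TAZ-CAMTA1 by means. The construct groups overlapped, and the highest library was TAZ-CAMTA1 replicate 2. The log2 differences from control were 2.83 ± 0.10 in TAZ4A and 2.95 ± 0.10 in TAZ-CAMTA1 (2.86 without that replicate). Between the constructs the difference was 0.13 ± 0.10, TAZ-CAMTA1 minus TAZ4A, and 0.03 without it.

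Ccl7 (chromosome 11, 82045712 to 82047523, plus strand), a second ligand of Ccr2, had 7.34, 8.34 and 7.77 CPM in TAZ4A and 0.154, 0.336 and 0.218 CPM in TAZ-CAMTA1, against 0.0929, 0.120 and 0.0627 CPM in control. These are 775, 20 and 8 reads. TAZ4A over control came to a rate ratio of 85.0 (95% counting interval 42.9 to 198), and TAZ-CAMTA1 over control to 2.55 (1.08 to 6.70). The TAZ-CAMTA1 libraries all lay above the control libraries, with 10 of their 20 reads in replicate 2. TAZ-CAMTA1 over TAZ4A was 0.0300 (0.0182 to 0.0467).

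Cx3cl1 (chromosome 8, 94772180 to 94782426, plus strand), the membrane-bound ligand fractalkine, was the only one of the 8 whose TAZ-CAMTA1 libraries all lay above the TAZ4A libraries. It had 1.39, 1.67 and 1.57 CPM in TAZ4A and 3.92, 3.12 and 4.19 CPM in TAZ-CAMTA1, against 0.371, 0.389 and 0.470 CPM in control. The groups did not overlap, and replicate 2 was the lowest of the TAZ-CAMTA1 libraries. Means were 3.76-fold control in TAZ4A and 9.13-fold control in TAZ-CAMTA1. The log2 differences from control were 1.17 ± 0.12 and 2.21 ± 0.12, and they were 0.55 and 1.25 with 2 CPM added in place of 0.5. TAZ-CAMTA1 minus TAZ4A was 1.05 ± 0.12, or 1.16 without replicate 2.

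Cxcl16 (chromosome 11, 70454234 to 70459984, minus strand), the other membrane-bound ligand, did not pass the filter. The TAZ4A libraries held 4, 6 and 4 reads and the TAZ-CAMTA1 libraries 0, 1 and 3, against 0, 2 and 0 in control. The rate ratio of TAZ4A over control was 6.14 (95% counting interval 1.41 to 55.7), and that of TAZ-CAMTA1 over control was 2.04 (0.293 to 22.6). Its row overlaps that of Zmynd15, on the other strand, by 363 bases, and whether the counting used strand is not given, so reads there cannot be told apart. No induction by TAZ-CAMTA1 was detectable at this depth.

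Set side by side, the induction by the fusion ranged over the ligands from none detectable to above that by TAZ4A. Both comparisons share the 3 control libraries. A log2 difference over 1 from control was reached by all 7 ligands that passed the filter in TAZ4A, where 5.04% of all tested genes reached it, and by 5 in TAZ-CAMTA1 (Cxcl1, Cxcl2, Cxcl5, Ccl2 and Cx3cl1), where 4.51% did. These contrasts chose the ligands, so nothing is read from the counts. The TAZ-CAMTA1 mean was 42.7% of the TAZ4A mean for Cxcl1, 34.4% for Cxcl2, 7.80% for Cxcl5, 3.02% for Ccl7 and 0.317% for Ccl20. For Ccl2 it was 110% and for Cx3cl1 243%. Without TAZ-CAMTA1 replicate 2 these became 40.6%, 32.9%, 8.24%, 2.38%, 0%, 102% and 263%. Between the constructs 5 of the 7 had a log2 difference below -1, TAZ-CAMTA1 minus TAZ4A, where 4.65% of tested genes did. Ccl20 and Ccl7 were thus the ligands past a log2 difference of 1 in TAZ4A and not in TAZ-CAMTA1. For Ccl7 this depends on the scale, because its TAZ-CAMTA1 difference of 0.31 ± 0.11 was 1.33 in an edgeR fit of the recovered reads and 1.37 with DESeq2. It does so for Cxcl5 as well, which with a pseudocount of 2 was at 3.15 in TAZ4A and 0.67 in TAZ-CAMTA1. In the authors' deposited table that difference of Ccl7 was 1.32, and the TAZ4A differences of Cxcl5, Ccl20 and Ccl7 were 8.70, 8.61 and 6.34.

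**Figure D2:**
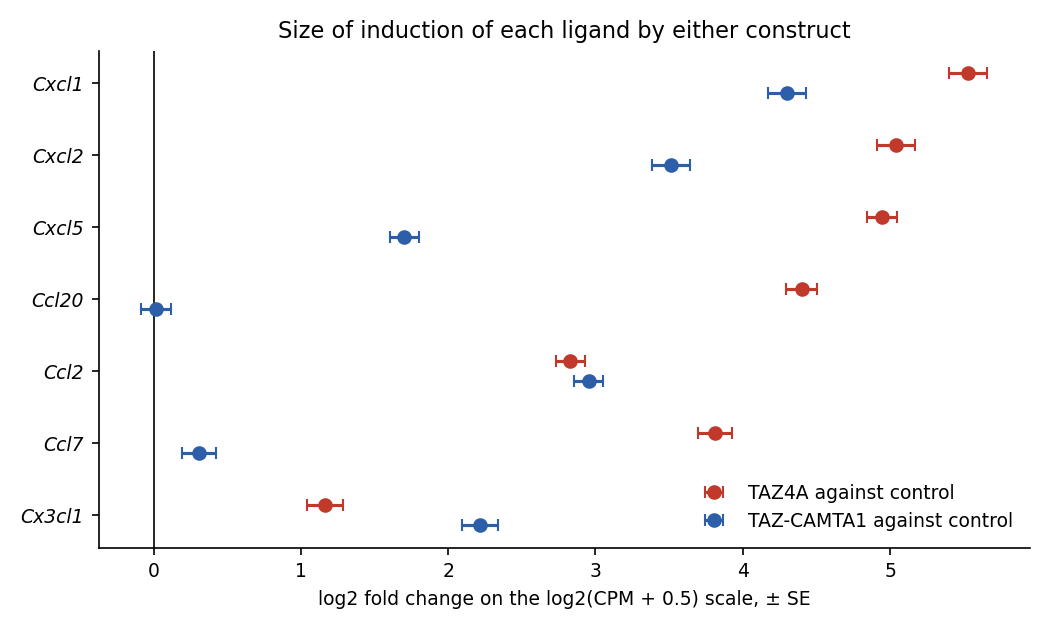
Log2 fold change from control of the 7 ligands that passed the filter, on the log2(CPM + 0.5) scale with the fitted SE, for TAZ4A (red) and TAZ-CAMTA1 (blue). The pairs lie close together for Ccl2 (2.83 and 2.95) and far apart for Ccl7 (3.81 and 0.31). The blue point of Ccl20 rests on 3 reads against 2 and is no fold, while its red point lies at 4.40.

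Levels of different genes were compared in TPM, which the authors scaled for length. The order of mean TPM in TAZ4A was Ccl2 (2582 ± 40), Cxcl1 (934 ± 25), Cxcl2 (172 ± 3.8), Ccl20 (33.3 ± 0.98), Ccl7 (24.6 ± 1.5), Cxcl5 (24.4 ± 1.5), Cx3cl1 (1.24 ± 0.11) and Cxcl16 (0.145 ± 0.030), and the only neighbours whose libraries overlapped were Ccl7 and Cxcl5. In TAZ-CAMTA1 it was Ccl2 (2608 ± 139), Cxcl1 (368 ± 42), Cxcl2 (54.7 ± 3.0), Cx3cl1 (2.82 ± 0.71), Cxcl5 (1.78 ± 0.41), Ccl7 (0.672 ± 0.18), Ccl20 (0.0847 ± 0.15) and Cxcl16 (0.0539 ± 0.071). Cx3cl1 and Cxcl5 overlapped there, as did Ccl20 and Cxcl16. In control Ccl2 (350 ± 18), Cxcl1 (18.4 ± 3.0) and Cxcl2 (4.02 ± 0.88) kept the first places, followed by Cx3cl1 (0.318 ± 0.046) and Ccl7 (0.278 ± 0.081), which overlapped, and by the 3 others, each under 0.1 TPM. Cx3cl1 thus stood right behind Cxcl2 in TAZ-CAMTA1 and behind all but Cxcl16 in TAZ4A.

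The 8 ligands together made up 3773 ± 66 TPM in TAZ4A and 3036 ± 103 TPM in TAZ-CAMTA1, against 373 ± 16 TPM in control (SD, n = 3 each). Ccl2 took 68.5 ± 0.16% of that sum in TAZ4A, 85.9 ± 1.8% in TAZ-CAMTA1 and 93.8 ± 0.95% in control. The ELR ligands Cxcl1, Cxcl2 and Cxcl5 took 30.0 ± 0.18%, 14.03 ± 1.8% and 6.04 ± 0.95%, so the neutrophil share of these transcripts was highest in TAZ4A and lowest in control.

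Reads spliced across annotated introns were counted from the deposited junction files of the same libraries. Unique spliced reads of Cxcl1 numbered 5442 in TAZ4A, 1858 in TAZ-CAMTA1 and 98 in control, and those of Cxcl2 1468, 355 and 21. Cxcl5 had 249, 15 and 0, and Ccl20 330, 2 and 0. Ccl2 had 18224, 16159 and 2133, and Ccl7 177, 2 and 2. For these 6 ligands every TAZ4A library exceeded every control library in spliced reads relative to all junction reads. The ligands were chosen on their rise in these libraries, and the share of all genes so separated was not computed. Nothing is therefore read from this count. Cx3cl1 held 6, 9 and 4 spliced reads and Cxcl16 2, 1 and 0, too few to separate the groups. Intron 1 of Ccl20 ended at 2 acceptors 3 bases apart, and TAZ4A replicates 1 to 3 held 15, 25 and 14 reads at the one and 6, 10 and 8 at the other. Introns outside the annotation held 99 unique reads in Ccl2, beside 36516 at annotated ones, and at most 6 in any other of the 8.

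**Figure D3:**
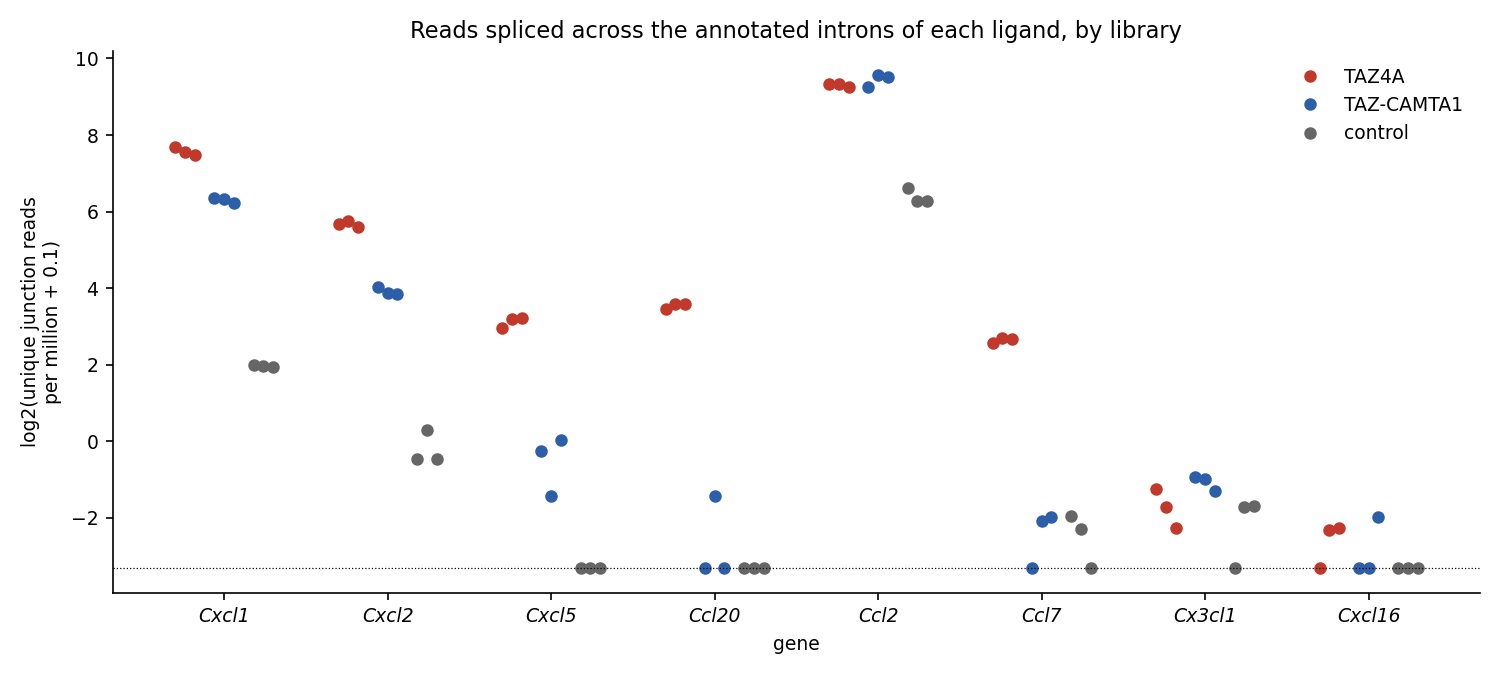
Unique reads across the annotated introns of each ligand, as RPM of the library's unique junction reads, on a log2 axis after adding 0.1. Each point is a library of TAZ4A, TAZ-CAMTA1 or control, and the dotted line marks 0 reads. Control libraries of Cxcl5 and Ccl20 all sit at 0, while Cx3cl1 and Cxcl16 stay near it in every group.

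Of the 8 genes 5 lie in pairs or groups on their chromosomes. Cxcl1 and Cxcl2 are 10.8 kb apart and followed the same order over the groups. Cxcl5 lies 130 kb before Cxcl1, and the genes of the table between them are Ppbp, Pf4 and Cxcl3. Pf4, platelet factor 4, was called in both constructs, at 3.02 ± 0.21 in TAZ4A (adjusted p = 1.7e-05) and 2.69 ± 0.21 in TAZ-CAMTA1 (adjusted p = 5.2e-05, log2 scale). Cxcl3, another ELR ligand, had 9, 1 and 1 reads in TAZ4A, TAZ-CAMTA1 and control. Ppbp, whose product also carries the ELR motif, had 5, 3 and 0. Rassf6, a gene of the RAS association domain family before Cxcl5, rose in both constructs (2.64 ± 0.13, adjusted p = 2.1e-06, and 1.36 ± 0.13, adjusted p = 0.00014). Mthfd2l, a mitochondrial folate enzyme gene behind Cxcl2, was at 12.8, 9.56 and 10.2 CPM and passed against control in neither (adjusted p = 0.14 and 0.64). 5830473C10Rik and Epgn, the outer neighbours of Cxcl5 and Cxcl2, stayed under 0.5 CPM as group means.

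Ccl2 and Ccl7 are 8.26 kb apart, and here the groups did not follow the same order: Ccl2 was high in both constructs and Ccl7 in TAZ4A. Ccl12, 54.3 kb behind Ccl7, had 1 read in all 9 libraries. Farther on, Cct6b stayed under 0.2 CPM. On the other side the nearest genes of the table are more than 1 Mb away. Tmem98 passed against control in TAZ-CAMTA1 (0.42 ± 0.13, adjusted p = 0.043), a call lost without any single TAZ4A or control library or TAZ-CAMTA1 replicate 3 (adjusted p = 0.0535 to 0.143), and not in TAZ4A (adjusted p = 0.31). Myo1d, a myosin gene, fell in TAZ4A (-1.70 ± 0.14, adjusted p = 4.7e-05). Its fall in TAZ-CAMTA1 (-0.45 ± 0.14, adjusted p = 0.039) was lost without any single TAZ4A or control library (0.0653 to 0.121).

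The remaining neighbours were mostly unlike the ligand. Beside Ccl20, Slc19a3 and Daw1 had at most 4 reads in a group and Pid1 stayed under 0.5 CPM, while Agfg1, which takes part in vesicle traffic, rose in TAZ4A (0.56 ± 0.11, adjusted p = 0.0054) and not in TAZ-CAMTA1 (0.03 ± 0.11, adjusted p = 0.84). Beside Cx3cl1, Pllp rose in TAZ-CAMTA1 (0.81 ± 0.16, adjusted p = 0.0060, or 0.0533 with quantile normalization) and Arl2bp fell in TAZ4A (-0.57 ± 0.08, adjusted p = 0.0012), Ciapin1 passed in neither (adjusted p = 0.23 and 0.35), and the chemokine Ccl17 had 9, 0 and 0 reads. Beside Cxcl16, Med11 passed in neither (0.52 and 0.24), and Mir7115, Zmynd15 and Tm4sf5 stayed under 0.3 CPM.

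**Figure D4:**
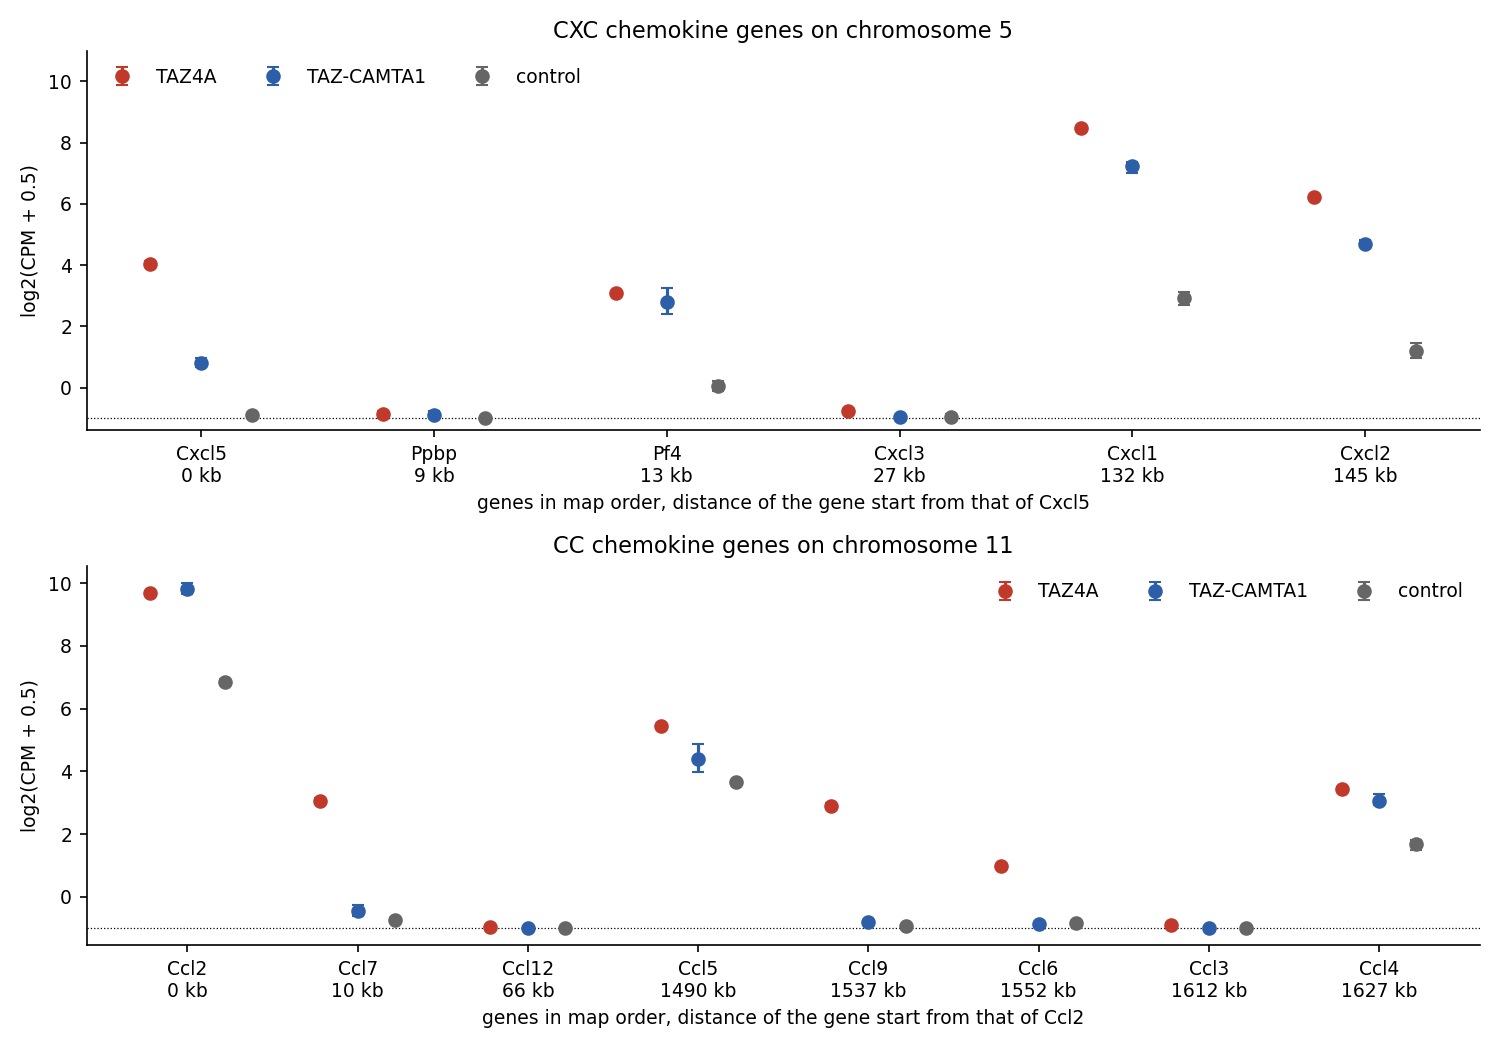
Levels of chemokine genes in map order along chromosome 5 (upper) and chromosome 11 (lower), as log2(CPM + 0.5). Points are the mean of 3 libraries and bars run from the lowest to the highest library, in TAZ4A, TAZ-CAMTA1 and control. The number under each name is the distance of its start from the first gene, and the dotted line marks 0 CPM. Ccl7 and Ccl9 stand at 7.81 and 6.86 CPM in TAZ4A and near the dotted line in both other groups, while Ccl2 and Ccl4 are raised in both constructs.

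RefSeq promoter sequences on GRCm38.p6 were at hand for Cxcl1, Cxcl2, Ccl20 and Cx3cl1. The first 3 are printed for the 250 bases before the start, all on the plus strand, since Cxcl1 and Cxcl2 moved together and Ccl20 did not move with them in TAZ-CAMTA1. Capitals mark matches, on either strand, to the NF-kB letters (GGG, any 2 bases, then TTTCC) or to the TEAD letters GGAATG, which did not overlap.
Cxcl1, chr5:90890995-90891244: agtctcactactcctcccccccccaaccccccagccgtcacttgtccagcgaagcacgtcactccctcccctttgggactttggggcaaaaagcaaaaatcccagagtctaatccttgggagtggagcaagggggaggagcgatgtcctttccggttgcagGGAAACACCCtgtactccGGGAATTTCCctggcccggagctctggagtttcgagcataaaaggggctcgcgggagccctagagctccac
Cxcl2, chr5:90903649-90903898: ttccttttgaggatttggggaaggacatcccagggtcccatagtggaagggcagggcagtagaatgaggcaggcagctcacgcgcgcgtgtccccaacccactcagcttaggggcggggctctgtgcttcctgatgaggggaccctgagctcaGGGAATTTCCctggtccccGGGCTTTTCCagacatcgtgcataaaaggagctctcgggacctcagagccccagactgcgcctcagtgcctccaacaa
Ccl20, chr1:83116516-83116765: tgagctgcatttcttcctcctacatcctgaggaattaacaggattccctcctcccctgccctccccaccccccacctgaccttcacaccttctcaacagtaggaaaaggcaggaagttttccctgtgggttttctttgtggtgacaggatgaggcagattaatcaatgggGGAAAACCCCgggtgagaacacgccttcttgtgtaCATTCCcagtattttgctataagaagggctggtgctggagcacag
Cxcl1 and Cxcl2 each held 2 matches to the NF-kB letters, GGGAATTTCC in both, at 71 bases before the start in Cxcl1 and 97 in Cxcl2. GGAAACACCC lay at 89 bases in Cxcl1 and GGGCTTTTCC at 78 in Cxcl2. Ccl20 held GGAAAACCCC at 80 bases and the TEAD letters, as CATTCC, at 45. Of 32851 promoters of this length 1.41% held the NF-kB letters and 12.6% the TEAD letters. The AP-1 letters TGANTCA, held by 6.75%, were in none of the 4, and TATAAA, held by 12.4%, ended at the last base before the start of Cx3cl1. A match is a run of letters and not a site shown to be bound.

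Other chemokine ligands were read from the fit over all genes, where 13.2% of tested genes rose and 11.7% fell in TAZ4A, 16.8% rose and 15.3% fell in TAZ-CAMTA1, and 19.4% were higher and 18.5% lower in TAZ-CAMTA1 than in TAZ4A (adjusted p under 0.05, limma). With every library scaled to the same sum the TAZ4A counts of 1630 rises and 1447 falls became 1967 and 1106. Of 32 other ligands 20 had a row and 9 were tested. Ccl9 and Ccl6 were under 0.5 CPM in every TAZ-CAMTA1 and control library and passed the filter through TAZ4A alone. The direction of their differences from TAZ4A was thus fixed by the filter. Both are kept in the counts of rises in TAZ4A and of lower values between the constructs that follow. In TAZ4A 8 of the 9 rose and none fell (median log2 fold change 1.77, against -0.01 over all tested genes). In TAZ-CAMTA1 4 rose and none fell (median 0.44, against -0.03). Between TAZ-CAMTA1 and TAZ4A 7 were lower and none higher (median -1.04, against -0.02). Without TAZ-CAMTA1 replicate 2 the rises were 8 in TAZ4A and 5 in TAZ-CAMTA1, and 8 were lower between the constructs, with none the other way. Of all tested genes 28.1% and 28.5% then rose, and 32.2% were lower between the constructs. Earlier results of these data were known when this list was drawn up.

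Cxcl10, an interferon-induced T cell attractant, averaged 120 ± 2.4 CPM in TAZ4A and 34.4 ± 0.46 CPM in TAZ-CAMTA1, against 25.2 ± 1.0 CPM in control. It rose in both (2.22 ± 0.06, adjusted p = 9.7e-08, and 0.44 ± 0.06, adjusted p = 0.0011) and was lower in TAZ-CAMTA1 than in TAZ4A (-1.78 ± 0.06, adjusted p = 3.8e-07). Ccl4, a macrophage inflammatory protein, rose in TAZ4A (1.76 ± 0.13, adjusted p = 2.1e-05) and in TAZ-CAMTA1 (1.37 ± 0.13, adjusted p = 0.00012). Ccl5, which draws T cells and monocytes, rose in TAZ4A (1.77 ± 0.20, adjusted p = 0.00032). Its rise in TAZ-CAMTA1 (0.66 ± 0.20, adjusted p = 0.039) was lost without any single TAZ4A or control library (0.0622 to 0.104).

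Ccl9, a ligand of Ccr1 in the mouse, was like Ccl7 in its spread over the groups. It had 6.86 ± 0.49 CPM in TAZ4A, 0.0678 ± 0.025 CPM in TAZ-CAMTA1 and 0.0204 ± 0.018 CPM in control, or 681, 6 and 2 reads. Its log2 differences from control were 3.82 ± 0.09 in TAZ4A and 0.13 ± 0.09 in TAZ-CAMTA1, and TAZ-CAMTA1 minus TAZ4A was -3.70 ± 0.09. Because Ccl9 passed the filter through TAZ4A alone, these are a description without a test. Ccl6, its neighbour on chromosome 11, had 1.47 ± 0.042, 0.0472 ± 0.018 and 0.0558 ± 0.030 CPM in TAZ4A, TAZ-CAMTA1 and control. The same limit holds for it. Cxcl12, the homeostatic ligand of Cxcr4, rose in TAZ4A (1.57 ± 0.18, adjusted p = 0.00033) and did not pass in TAZ-CAMTA1 (0.53 ± 0.18, adjusted p = 0.058). Its TAZ-CAMTA1 libraries spread from 159 to 268 CPM (mean 231 ± 62), against 148 to 160 CPM in control and 455 to 470 CPM in TAZ4A.

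**Figure D5:**
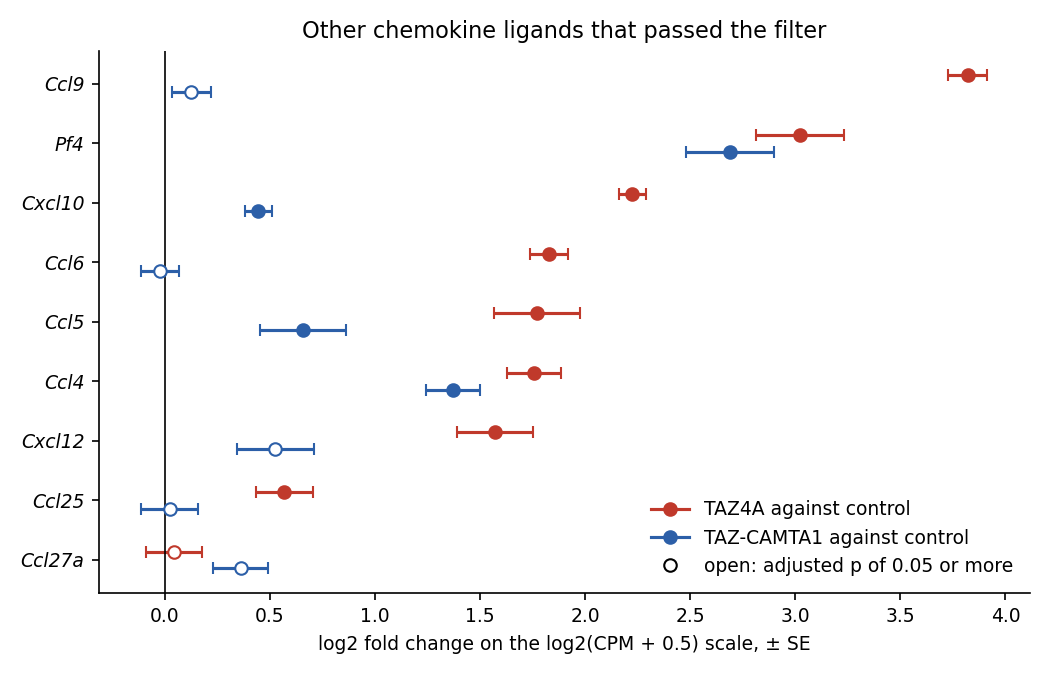
Log2 fold change from control with its SE for the 9 other chemokine ligands that passed the filter, in TAZ4A (red) and TAZ-CAMTA1 (blue). Filled points have an adjusted p under 0.05 and open points do not. For Ccl9 and Ccl6 the filter fixed the direction in TAZ4A, so their filled points are no free test. Ccl9 lies at 3.82 in TAZ4A and 0.13 in TAZ-CAMTA1, while Pf4 is called in both at 3.02 and 2.69.

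The receptors for the 8 ligands were near 0 or not analysed here. Cxcr2 had 1, 1 and 0 reads in TAZ4A, TAZ-CAMTA1 and control, and Cx3cr1 had 3, 1 and 1. Cxcr1, Ccr2, Ccr6 and Cxcr6 were not analysed here. Of 23 receptors and scavengers 15 had a row and 6 were tested. Cxcr3, Ccr10 and Ackr2 were under 0.5 CPM in every TAZ4A library and passed the filter through the other groups, which favours lower values in TAZ4A. In TAZ4A 1 rose and 3 fell (median -0.54), or 1 and 5 without TAZ-CAMTA1 replicate 2. In TAZ-CAMTA1 3 rose and none fell (median 0.60), or 4 and none. Between TAZ-CAMTA1 and TAZ4A all 6 tested were higher (median 1.21), also without that library. The shares of all tested genes were 13.2% and 11.7% in TAZ4A (28.1% and 30.3% without that library). They were 16.8% and 15.3% in TAZ-CAMTA1 (28.5% and 32.3%) and 19.4% and 18.5% between the constructs (30.8% and 32.2%).

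Cxcr4, the receptor of Cxcl12, had 27.2 ± 0.93 CPM in TAZ4A, 196 ± 16 CPM in TAZ-CAMTA1 and 225 ± 17 CPM in control. It fell in TAZ4A (-3.03 ± 0.09, adjusted p = 9.7e-08) and did not pass in TAZ-CAMTA1 (-0.20 ± 0.09, adjusted p = 0.12). Ackr3, a scavenger of the same ligand, likewise fell in TAZ4A (-1.69 ± 0.11, adjusted p = 1.1e-05) and not in TAZ-CAMTA1 (0.13 ± 0.11, adjusted p = 0.39). Ccrl2, which holds the attractant chemerin on endothelium, rose in TAZ4A (0.92 ± 0.16, adjusted p = 0.0032) and in TAZ-CAMTA1 (1.93 ± 0.16, adjusted p = 6.9e-05). Ackr2, a scavenger of inflammatory CC ligands that include Ccl2 and Ccl7, fell in TAZ4A (-0.65 ± 0.13, adjusted p = 0.0069) and rose in TAZ-CAMTA1 (0.58 ± 0.13, adjusted p = 0.011, or 0.167 with quantile normalization), at group means of 0.304, 1.37 and 0.756 CPM in TAZ4A, TAZ-CAMTA1 and control. Cxcr3, the receptor of Cxcl10, rose in TAZ-CAMTA1 (0.77 ± 0.14, adjusted p = 0.0041).

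Genes of cytokines and receptors that induce these ligands in many cells were read next. Of 31 listed, 21 were tested. Il1rl1 and Il18 passed the filter through TAZ4A alone, so the direction of their differences from TAZ4A was fixed by the filter. Il1a was under 0.5 CPM in every control library and passed through construct libraries, which favours a rise over control. All of them are kept in the counts. In TAZ4A 9 rose and 2 fell (13 and 5 without TAZ-CAMTA1 replicate 2), with a median of 0.44. In TAZ-CAMTA1 3 rose and 2 fell (7 and 7), median -0.02, and between TAZ-CAMTA1 and TAZ4A 1 was higher and 7 lower (4 and 11), median -0.36. The shares of all tested genes beside these counts were 13.2% and 11.7% in TAZ4A (28.1% and 30.3% without that library), 16.8% and 15.3% in TAZ-CAMTA1 (28.5% and 32.3%) and 19.4% and 18.5% between the constructs (30.8% and 32.2%). The classical inducers Il1b and Tnf were at or under 2 reads in every group, and Il17a was not analysed here. Il1a, the other interleukin 1, had 107, 50 and 7 reads in TAZ4A, TAZ-CAMTA1 and control. Its log2 differences from control were 1.48 ± 0.22 in TAZ4A and 0.89 ± 0.22 in TAZ-CAMTA1. They are given as a description, because the filter favoured them.

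The 3 largest rises of this list in TAZ4A were those of Il1rl1, Lif and Osmr. Il1rl1, the receptor of interleukin 33, had 194, 1 and 1 reads in TAZ4A, TAZ-CAMTA1 and control. Its log2 difference in TAZ4A was 2.27 ± 0.09, with a direction fixed by the filter, so no test is given. Lif, a cytokine of the interleukin 6 family, had 5.48 ± 0.49 CPM in TAZ4A and 0.734 ± 0.14 CPM in TAZ-CAMTA1, against 0.751 ± 0.14 CPM in control (2.26 ± 0.13, adjusted p = 5.2e-06, in TAZ4A). Osmr, the oncostatin M receptor, had 63.8 ± 2.3, 15.7 ± 4.8 and 13.2 ± 1.4 CPM (2.24 ± 0.21, adjusted p = 9.4e-05, in TAZ4A). Lif and Osmr were also lower in TAZ-CAMTA1 than in TAZ4A (adjusted p = 5.3e-06 and 0.00014). Tnfrsf1a, the main receptor of TNF, fell in TAZ4A (-0.50 ± 0.08, adjusted p = 0.0015), and so did the kinase gene Irak4 (-0.47 ± 0.11, adjusted p = 0.013), a call lost without TAZ4A replicate 2 or 3 or control replicate 1 (0.0600 to 0.0603). The double-stranded RNA sensor Tlr3 fell in TAZ-CAMTA1 (-0.69 ± 0.15, adjusted p = 0.0088). Il6 itself rose in TAZ4A (0.92 ± 0.17, adjusted p = 0.0044). Its call in TAZ-CAMTA1 (0.56, adjusted p = 0.035) was lost without TAZ-CAMTA1 replicate 1, TAZ4A replicate 3 or any control library (0.0583 to 0.115). The calls of Tnfrsf1b (0.35, adjusted p = 0.016) and Irak1 (-0.43, adjusted p = 0.020) in TAZ-CAMTA1 were lost without control replicate 3 and without control replicate 2 or 1 in turn (0.0541 to 0.0824).

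NF-kB is the transcription factor family through which interleukin 1 and TNF switch on Cxcl1, Cxcl2, Ccl20 and Ccl2, and its inhibitors are themselves induced by it. All 21 listed subunits, kinases and regulators were tested. In TAZ4A 7 rose and 2 fell (11 and 5 without TAZ-CAMTA1 replicate 2), median 0.23. In TAZ-CAMTA1 11 rose and 1 fell (14 and 1), median 0.35, and between TAZ-CAMTA1 and TAZ4A 9 were higher and 3 lower (11 and 4), median 0.25. Over all tested genes 13.2% rose and 11.7% fell in TAZ4A (28.1% and 30.3% without that library), 16.8% and 15.3% in TAZ-CAMTA1 (28.5% and 32.3%), and 19.4% and 18.5% were higher and lower between the constructs (30.8% and 32.2%).

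Tnip1, an inhibitor that binds ubiquitin, had 83.3 ± 3.0 CPM in TAZ4A and 162 ± 21 CPM in TAZ-CAMTA1, against 40.4 ± 2.3 CPM in control. It rose in both (1.03 ± 0.10, adjusted p = 0.00010, and 1.98 ± 0.10, adjusted p = 4.5e-06) and was higher in TAZ-CAMTA1 than in TAZ4A (0.95 ± 0.10, adjusted p = 0.00015). Nfkbie, an IkB protein that holds NF-kB in the cytoplasm, rose in TAZ-CAMTA1 (1.58 ± 0.14, adjusted p = 8.3e-05), and its call in TAZ4A (0.45, adjusted p = 0.044) was lost without TAZ-CAMTA1 replicate 1 or any TAZ4A or control library (0.0546 to 0.150). Traf1, an adaptor of TNF receptors, fell in TAZ4A (-0.66 ± 0.11, adjusted p = 0.0027) and rose in TAZ-CAMTA1 (1.29 ± 0.11, adjusted p = 7.9e-05). Tnfaip3, the A20 enzyme that ends NF-kB signalling, had 20.7 ± 0.29 CPM in TAZ4A and 12.3 ± 2.6 CPM in TAZ-CAMTA1, against 4.89 ± 0.51 CPM in control. It rose in both (1.98 ± 0.15, adjusted p = 3.2e-05, and 1.23 ± 0.15, adjusted p = 0.00054) and was lower in TAZ-CAMTA1 than in TAZ4A (-0.75 ± 0.15, adjusted p = 0.0053). Bcl3, a nuclear partner of NF-kB, rose in both (1.35 ± 0.18 and 1.83 ± 0.18, adjusted p = 0.00081 and 0.00018). Calls of Tnip2 in TAZ4A (-0.36, adjusted p = 0.032), of Chuk in TAZ-CAMTA1 against control (-0.52, 0.043) and against TAZ4A (-0.55, 0.033) and of Cyld in TAZ-CAMTA1 against TAZ4A (-0.61, 0.047) were each lost without any single TAZ4A or control library (0.0520 to 0.131).

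Chemokine transcripts are short-lived, and proteins that bind their AU-rich ends set how long they last. All 13 listed were tested. In TAZ4A 1 rose and 1 fell (4 and 4 without TAZ-CAMTA1 replicate 2), in TAZ-CAMTA1 3 rose and 4 fell (3 and 6), and between TAZ-CAMTA1 and TAZ4A 4 were higher and 3 lower (5 and 5). The medians were 0.01, -0.22 and -0.21. In the same order 13.2% and 11.7%, 16.8% and 15.3%, and 19.4% and 18.5% of all tested genes were called, or 28.1% and 30.3%, 28.5% and 32.3%, and 30.8% and 32.2% without that library, so that 4 and 4 of 13 lie near the share over all genes. Zfp36 (tristetraprolin), which speeds decay of such transcripts, had 27.1 ± 1.3 CPM in TAZ4A and 35.3 ± 2.2 CPM in TAZ-CAMTA1, against 43.9 ± 0.63 CPM in control. It fell in TAZ4A (-0.69 ± 0.08, adjusted p = 0.00020) and in TAZ-CAMTA1 (-0.32 ± 0.08, adjusted p = 0.013, or 0.0538 without control replicate 3). Zc3h12a (regnase 1), a nuclease that cuts inflammatory transcripts, rose in both (0.90 ± 0.08, adjusted p = 7.0e-05, and 1.29 ± 0.08, adjusted p = 1.4e-05). Zfp36l1, a relative of Zfp36, rose in TAZ-CAMTA1 (0.70 ± 0.06, adjusted p = 8.9e-05), as did Arid5a, which protects such transcripts (0.59 ± 0.08, adjusted p = 0.00084). Hnrnpd fell in TAZ-CAMTA1 (-0.41 ± 0.08, adjusted p = 0.0057). So did Khsrp (-0.31 ± 0.08, adjusted p = 0.019, or 0.0708 and 0.0721 without control replicate 1 and 3) and Tial1 (-0.23 ± 0.06, adjusted p = 0.025, or 0.0502 to 0.0942 without any single library but TAZ4A replicate 3 and TAZ-CAMTA1 replicate 2).

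Genes for shedding, cutting and display of chemokines formed the last list, 28 of which 23 were tested. Tnfaip6 among them passed the filter through TAZ4A alone. In TAZ4A 8 rose and 4 fell (13 and 5 without TAZ-CAMTA1 replicate 2), in TAZ-CAMTA1 10 rose and 3 fell (13 and 4), and between TAZ-CAMTA1 and TAZ4A 9 were higher and 6 lower (12 and 8). The medians were 0.12, 0.23 and -0.02. For all tested genes the shares were 13.2% and 11.7% in TAZ4A (28.1% and 30.3% without that library), 16.8% and 15.3% in TAZ-CAMTA1 (28.5% and 32.3%) and 19.4% and 18.5% between the constructs (30.8% and 32.2%). Mmp2, a gelatinase that trims Ccl7 into an antagonist, had 50.5 ± 1.3 CPM in TAZ4A and 43.1 ± 3.6 CPM in TAZ-CAMTA1, against 10.1 ± 0.26 CPM in control, and rose in both (2.27 ± 0.08, adjusted p = 2.4e-07, and 2.04 ± 0.08, adjusted p = 1.1e-06). Sdc4, a heparan sulfate proteoglycan, rose in both (1.96 ± 0.12, adjusted p = 6.7e-06, and 2.42 ± 0.12, adjusted p = 3.9e-06). Its relative Sdc1 rose in TAZ4A (0.95 ± 0.10, adjusted p = 0.00019) and not in TAZ-CAMTA1 (0.15 ± 0.10, adjusted p = 0.29). Sdc3 fell in TAZ4A (-0.56 ± 0.10, adjusted p = 0.0026) and rose in TAZ-CAMTA1 (0.48 ± 0.10, adjusted p = 0.0054, or 0.0586 with TPM). Ndst2, an enzyme that sulfates heparan chains, fell in both (-0.91 ± 0.09, adjusted p = 0.00014, and -0.82 ± 0.09, adjusted p = 0.00034).

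The sheddases of Cx3cl1 and Cxcl16, Adam10 and Adam17, passed in neither construct (adjusted p = 0.30 and 0.37 for Adam10 in TAZ4A and TAZ-CAMTA1, 0.59 and 0.85 for Adam17). Their TAZ4A and control libraries did not overlap, at 309 to 332 against 360 to 405 CPM for Adam10. For Adam17 they were at 297 to 314 against 267 to 284 CPM. The SD in TAZ-CAMTA1, 79 and 75 CPM, enters the pooled fit, so the missing calls do not show that they were unchanged in TAZ4A. Rhbdf2, a cofactor that matures Adam17, rose in TAZ-CAMTA1 (0.85 ± 0.07, adjusted p = 7.6e-05). Its call in TAZ4A (0.29 ± 0.07, adjusted p = 0.020) was lost without any single TAZ4A library or control replicate 2 or 3 (0.0592 to 0.0914). Rhbdf1 rose in TAZ-CAMTA1 as well (0.56 ± 0.10, adjusted p = 0.0037). Timp3, an inhibitor of Adam17, was lower in TAZ-CAMTA1 than in TAZ4A (-1.24 ± 0.21, adjusted p = 0.0023) and passed against control in neither (adjusted p = 0.068 in TAZ4A and 0.057 in TAZ-CAMTA1). Its libraries did not overlap, at 463 to 479 CPM in TAZ4A, 132 to 248 in TAZ-CAMTA1 and 302 to 316 in control. The fit pools the spread of all groups, and the SD of Timp3 was 66 CPM in TAZ-CAMTA1, against 8.8 in TAZ4A and 7.2 in control. Sdc2, another syndecan, rose in both (0.92 ± 0.09, adjusted p = 0.00010, in TAZ4A and 0.50 ± 0.09, adjusted p = 0.0031, in TAZ-CAMTA1). Hs6st1, a sulfotransferase of heparan chains, fell in TAZ4A (-0.49 ± 0.07, adjusted p = 0.0015). Its fall in TAZ-CAMTA1 (adjusted p = 0.027) was lost without TAZ-CAMTA1 replicate 1 or 3, TAZ4A replicate 1 or control replicate 1 or 2 (0.0517 to 0.0987). The fall of Sulf2 there (adjusted p = 0.042) was lost without TAZ-CAMTA1 replicate 1 or any TAZ4A or control library (0.0527 to 0.138). Hspg2 (perlecan) was higher in TAZ-CAMTA1 than in TAZ4A (adjusted p = 0.024), a call lost without any TAZ4A library or TAZ-CAMTA1 replicate 1 or 3 (0.0596 to 0.0841).

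Genes with the pattern most like each ligand were sought among 11864 genes of at least 1 CPM in their highest group, the 8 ligands themselves left out, by the root-mean-square difference of log2(CPM + 0.5) over the 9 libraries after subtraction of the control mean. Levels far below 0.5 CPM look alike on this scale. For Cxcl1 these were C3 (complement component 3, difference 0.508), Cp (ceruloplasmin, 0.647) and Wfdc17 (0.665), and for Cxcl2 C1s1 (a complement protease, 0.254), Slpi (a secreted protease inhibitor, 0.439) and Wfdc17 (0.535). For Cxcl5 they were Ankrd1 (0.755), Slpi (0.780) and Cxadr (0.850). Ccl20 was nearest to Ptprq (0.154), Aldh1a1 (0.217) and Sprr3 (0.270). Ptprq had 1138, 0 and 6 reads in TAZ4A, TAZ-CAMTA1 and control. For Ccl2 they were Il4ra (the interleukin 4 receptor, 0.237), Pf4 (0.239) and Serpina3i (0.399). Il4ra had 46.3 ± 0.97 CPM in TAZ4A and 52.3 ± 5.5 CPM in TAZ-CAMTA1, against 7.58 ± 0.21 CPM in control. Ccl7 was nearest to Ccl9 (0.152), Axl (a receptor tyrosine kinase, 0.170) and Cnn1 (calponin, 0.229), and Cx3cl1 to D8Ertd82e (0.122), Arhgap26 (0.139) and Pou2f2 (0.162). No gene was among the nearest of both Ccl2 and its neighbour Ccl7.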

How the data were processed

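Poly-A RNA of MS1 cells was sequenced by the authors on an Illumina HiSeq after preparation with a stranded kit, per the labels' protocols. The submitters' processing notes name bcl2fastq, FastQC, STAR, featureCounts and edgeR and the build mm10. No source used here gives versions or the strand setting. The gene values are a deposited signal that the authors named CPM, whose library sums ranged from 976997 to 1028367. Divided by what 1 read is worth in its library, 100% of values came out whole (tolerance 0.01), which gave back the reads. The planned test assumed CPM and was kept. The authors' TPM values, their log2 fold changes and the deposited counts of junction reads were used as such.

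Groups came from the sample titles. The test was limma-trend (limma 3.58.1, R 4.3.3, trend and robust settings) on log2(CPM + 0.5) in a single fit of all 9 libraries and 3 contrasts with 6 residual degrees of freedom. It covered the 12350 genes that reached 0.5 CPM in 3 or more libraries, p-values were adjusted by Benjamini-Hochberg, and calls needed an adjusted p under 0.05. "Rose" and "fell" are used of genes that passed. The ligands get no test, and their count ratios carry 95% exact intervals for counting error only. The fit was tested on simulated data. Genes named are, per list and comparison, up to 3 called rises and 3 called falls that reached 1 CPM as a group mean, the 3 genes most like each ligand, its 2 nearest genes on either side, and Wwtr1 and Camta1. Il1a, Il1b, Tnf, Lyz2, Cxcl12, Adam10, Adam17 and the receptors of the ligands were named in addition, after their values were seen. The ligands and lists were chosen with earlier results of these data known. Alternatives were pseudocounts of 0.1 and 2, no filter, a minimum of 2 CPM, equal sums, quantile normalization, TPM, the GENCODE table, the 6 libraries compared, the replicate number as a block, library quality weights, edgeR 4.0.16 and DESeq2 1.42.0 on recovered reads, and leaving out each library. Positions are the deposited ones with 1 added to the start. Columns of samples left unassigned numbered 0.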

Additional observations from a re-analysis of the deposited data

How the results depend on the processing

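Both construct groups kept their counts of ligands past a log2 difference of 1 (7 and 5), and the count below -1 between them (5), without any single library. The count in TAZ4A was 6 with quantile normalization and with a pseudocount of 2, where Cx3cl1 was at 0.83 and 0.55. The count in TAZ-CAMTA1 was 4 with a pseudocount of 2, where Cxcl5 was at 0.67, and 6 with edgeR and DESeq2 on recovered reads, where Ccl7 passed 1. No ligand with a difference beyond 1 changed sign under any alternative. The size for low ligands moved most: Ccl20 in TAZ4A ranged from 2.64 with a pseudocount of 2 to 8.86 with DESeq2, and Cxcl5 from 3.15 to 8.87, which follows from the value added before the log. TPM moved the median of all tested genes between TAZ-CAMTA1 and TAZ4A to -0.13. The 6 ligands whose spliced reads separated TAZ4A from control were 6 with multiply mapped reads added and relative to gene reads, a count from which nothing is read.

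Counts of called genes depended on TAZ-CAMTA1 replicate 2. In TAZ4A against control 3077 genes were called, 7206 without that library, 7233 from the 6 libraries compared and 7432 with library quality weights. In TAZ-CAMTA1 against control 3966 were called, 7516 without it, 2626 without control replicate 3, 2445 from the 6 libraries compared and 7255 with weights. In TAZ-CAMTA1 against TAZ4A 4684 were called, 7779 without it and 8272 with weights. Leaving out single libraries gave ranges of 2101 to 7206, 2626 to 7516 and 3236 to 7779. Of the 93 tested list genes 46, 44 and 55 were called in these comparisons, with ranges of 39 to 74, 32 to 64 and 40 to 74 without single libraries. The 46 became 71 both with the 6 libraries compared and with weights.

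Whether replicate numbers pair the samples cannot be settled from these libraries, and the main fit did not pair them. Correlations of deviations from the group mean ran from -0.120 to 0.523 for same-numbered libraries of different groups. For libraries with different numbers they ran from -0.527 to 0.563. With the replicate block 2890, 3881 and 4619 genes and 45, 44 and 52 list genes were called. Of the called differences of single genes, 2207 values under settings that kept every library stayed past the threshold and 88 did not, and without single libraries 1457 stayed and 145 did not, and none changed sign. Depth limits Cxcl16 and the fusion and control values of Ccl20, which rest on few reads. Cx3cl1 had 6, 9 and 4 spliced reads beside 153, 316 and 36 gene reads in TAZ4A, TAZ-CAMTA1 and control. The reason for so few spliced reads was not tested.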
